A study of Mus musculus with 3 samples.

Results

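Lysosomal and autophagy genes were examined in UMI-RNAseq data from NIH3T3, a mouse fibroblast line that has long been kept in culture. A list of 48 genes, all of them protein-coding, was matched by gene name to a table of 55573 genes, and each of the 48 was found. The list was built from what the proteins do, with earlier results of these data known. It holds 11 cathepsins, 1 cystatin, 7 glycosidases, 7 other soluble lysosomal proteins and 6 membrane proteins. The rest are 13 genes of the autophagy core and 3 genes of the TFEB family. The study counted transcripts in NIH3T3 cells to choose targets for a fluorescence in situ hybridization method. It also compared the sequenced levels of these targets with the signals that the method counted per cell. For this, 3 libraries, numbered here by their replicate, were deposited. Their labels name the line, its growth in DMEM with fetal bovine serum, and no treatment, transgene or time, so there are no groups to compare. Whether they were grown as independent cultures is not stated, and every SD may hold technical spread alone. In UMI-RNAseq a random tag marks each molecule before amplification so that PCR copies can be removed, and the values are FPKM, in which the fragments of a gene are divided by its length in kilobases and by the library total in units of 1000000. Whole fragments could be worked back from the FPKM of every listed gene, and the libraries hold between 13959723 and 14423209 fragments.

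Lysosomes are acidic compartments in which proteins, glycans, lipids and nucleic acids are broken down. Most of their enzymes are made as precursors in the endoplasmic reticulum, receive a mannose 6-phosphate tag in the Golgi and are carried to the lysosome by receptors. Autophagy brings the cell's own material there: a kinase complex starts a double membrane, small ubiquitin-like proteins of the ATG8 family are fixed to its lipids, and receptors such as p62 link cargo to them. Transcription factors of the TFEB family, which bind a short palindrome in promoters, are known to drive many of these genes when nutrients are scarce.

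These genes were well represented in NIH3T3 cells, but the list was chosen with earlier results of these data known. The shares below describe the list and are not a test. Of the 48, 43 (89.6%) had a mean of at least 1 FPKM, against 23.2% of all genes in the table and 49.2% of the protein-coding genes. At least 10 FPKM was reached by 40 (83.3%), against 35.6% of protein-coding genes, and at least 100 FPKM by 18 (37.5%), against 5.21% of protein-coding genes. Their median was 43.0 FPKM, and 46.7 FPKM among those at 1 FPKM or more, where the median of all genes at that limit was 17.5 FPKM and that of the protein-coding genes 21.9 FPKM. Together they summed to 7907, 7952 and 7902 FPKM in libraries 1, 2 and 3, which was 1.15% ± 0.0154 (SD, n = 3) of all FPKM. The sum was unevenly spread: Ctsl, a cysteine protease, and Sqstm1, the autophagy receptor p62, held 39.9% of it, and the top 5 genes held 57.5%. All 37 listed genes that are not cathepsins were at 1 FPKM or more, so the 5 genes below that limit were all cathepsins.

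**Figure D1:**
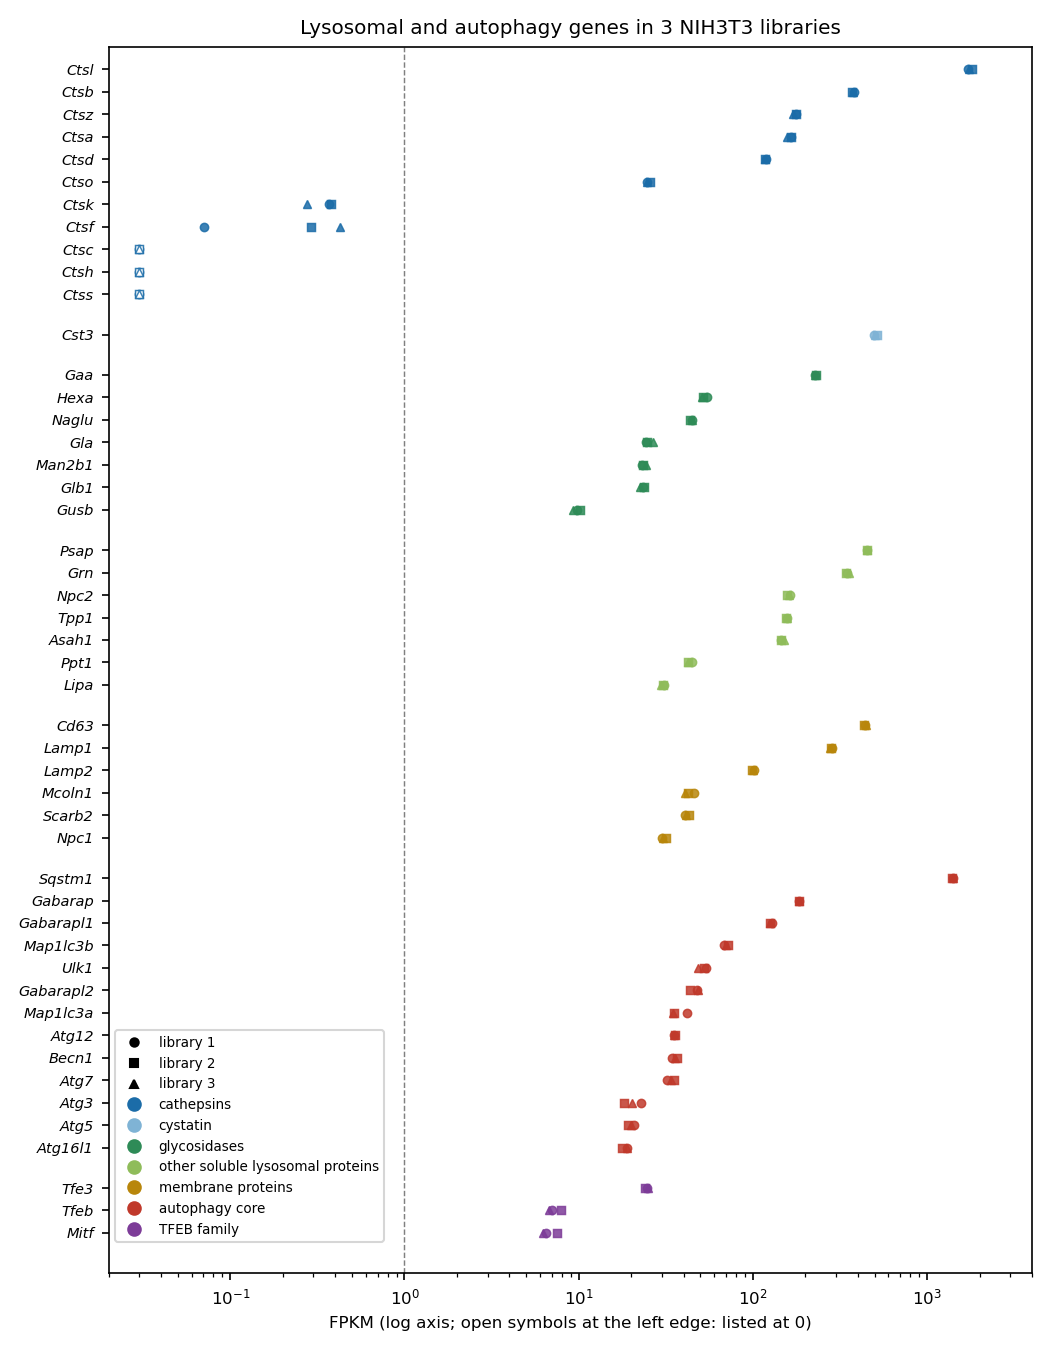
FPKM of the 48 lysosomal and autophagy genes in each of the 3 NIH3T3 libraries, by class, on a log axis, with 1 point for each library. Ctsl and Sqstm1 are the highest, at means of 1761 and 1403 FPKM, the TFEB family lies at 24.5 FPKM or below, and the only genes under 1 FPKM are 5 cathepsins, of which 3 are listed at 0.

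The regulators were among the lower genes of the list. Tfe3 stood at 24.5, 24.2 and 24.9 FPKM in libraries 1, 2 and 3. Tfeb had 7.01, 7.90 and 6.78 FPKM, and Mitf, best known from pigment cells and osteoclasts, had 6.45, 7.52 and 6.27 FPKM. The ranges of Tfeb and Mitf overlapped, and Tfe3 was apart from both. The Tfe3 level was 3.41 ± 0.314 times that of Tfeb (SD, n = 3), and the ratio was above 1 in each library. With fragments not divided by gene length it was 9.33. The 3 listed genes of the family held 0.486% ± 0.0100 (SD, n = 3) of the FPKM of the listed genes, the smallest share of any class.

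The TFEB family recognizes the E-box CACGTG, and the longer palindrome TCACGTGA contains it. The CLEAR consensus extends the latter by a G before it and a C after it. These letters were looked for in RefSeq promoters of GRCm38.p6, from 250 bases before to 50 bases after each annotated start, of which 40 of the 48 genes had an entry. Each motif reads alike on both strands, so 1 search covers both. CACGTG was found in 13 of the 40 (32.5%), against 8.09% of the 27025 genes in the same table that have a promoter entry. By class it was present in 4 of 9 cathepsins, 4 of 7 glycosidases, 2 of 5 membrane proteins and 3 of 9 autophagy core genes, and in none of the 6 other soluble proteins, the cystatin or the 3 TFEB family genes. TCACGTGA was found in 5 of the 40 (12.5%), against 1.12% of all these genes, and the CLEAR consensus in 0 of the 40, against 0.370%. No limit on gene type or level was set for the background percentages, so they are not matched to the listed genes. A match describes the letters in this window only and does not show binding.

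The 5 genes with TCACGTGA are shown with 11 bases on each side, 5′ to 3′ on the gene's strand and with the motif in capitals, because they carry the longer palindrome found most often here. The genes are Ctsa and Ctsd (carboxypeptidase and aspartic protease), Gla (alpha-galactosidase A), Mcoln1 (the lysosomal calcium channel TRPML1) and Atg3 (the enzyme that joins ATG8 proteins to lipid). The positions on GRCm38.p6 are chr2:164833749-164833778 (+) and chr2:164833766-164833795 (+) for Ctsa, chr7:142387908-142387937 (-) for Ctsd, chrX:134601215-134601244 (-) and chrX:134601182-134601211 (-) for Gla, chr8:3500462-3500491 (+) for Mcoln1 and chr16:45158746-45158775 (+) for Atg3.
Ctsa, first site: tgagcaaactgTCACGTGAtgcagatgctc
Ctsa, next site: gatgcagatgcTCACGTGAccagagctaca
Ctsd: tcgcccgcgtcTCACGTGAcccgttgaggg
Gla, first site: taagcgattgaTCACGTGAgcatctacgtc
Gla, next site: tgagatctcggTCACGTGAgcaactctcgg
Mcoln1: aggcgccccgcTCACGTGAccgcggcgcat
Atg3: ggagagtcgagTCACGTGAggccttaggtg
Ctsa and Gla each held the motif at 2 sites. The sites of Ctsa begin 13 bases before and 4 bases after the annotated start, and those of Gla 228 and 195 bases before it. The single sites begin 99 bases before the start in Ctsd, 46 in Mcoln1 and 72 in Atg3. All these starts are RefSeq starts. In GENCODE M21, the annotation used here for lengths, Ctsa, Ctsd and Mcoln1 begin upstream of the sites shown, which thus lie inside the spans of these genes.

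The promoter of Lamp1, which encodes a main glycoprotein of the lysosomal membrane, is shown because it held CACGTG 4 times within 74 bases. These lie at chr8:13159089-13159162 (+). That of Ctsl is shown because it belongs to the highest gene of the list. It held the motif once, at chr13:64370740-64370767 (-), 236 bases before a RefSeq start. In GENCODE M21 Ctsl begins at 64370890 on the minus strand, so this site lies inside the span of the gene.
Lamp1: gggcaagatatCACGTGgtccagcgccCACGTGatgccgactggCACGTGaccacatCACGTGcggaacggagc
Ctsl: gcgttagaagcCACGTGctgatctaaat
The levels of genes with and without these letters overlapped over most of their range. The 13 genes with CACGTG had a median of 42.9 FPKM and a range from 0.262 FPKM (Ctsf) to 1761 FPKM (Ctsl), and 5 of them reached 100 FPKM. The 27 genes without it had a median of 51.6 FPKM and a range from 0 to 1403 FPKM (Sqstm1), and 11 of them reached 100 FPKM.

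Cathepsins, the proteases of the lysosome, held 33.0% ± 0.465 (SD, n = 3) of the FPKM of the listed genes, and 67.3% of that came from Ctsl. This share was above that of every other class with the deposited lengths, but with the longest isoform of each gene it was 24.0%, below the 25.8% of the autophagy core. Ctsl (ENSMUSG00000021477, chr13:64359337-64370890 on GRCm38, minus strand) encodes cathepsin L, an endopeptidase that fibroblasts also secrete as a precursor. It was at 1726, 1815 and 1742 FPKM, from 40050, 40768 and 40090 fragments, and library 2 was the highest. Ctsb, cathepsin B, came next with 380, 370 and 374 FPKM. The Ctsl level was 4.70 ± 0.184 times that of Ctsb (SD, n = 3), and their ranges did not overlap.

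After them came Ctsz, a carboxypeptidase, with 177, 176 and 170 FPKM. Ctsa, which also shields other lysosomal enzymes from breakdown, had 165, 164 and 157 FPKM. Ctsd, the main aspartic protease, had 119, 117 and 118 FPKM, and Ctso, a cysteine protease, 24.8, 25.6 and 24.6 FPKM. The libraries of these 6 cathepsins did not overlap between neighbours in the order of their means.

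The other 5 cathepsins were at or near 0. Ctsk, the collagen-degrading cathepsin of osteoclasts, rested on 8, 8 and 6 fragments, or 0.367, 0.379 and 0.277 FPKM. Ctsf, a cysteine protease, rested on 1, 4 and 6 fragments, or 0.0702, 0.290 and 0.425 FPKM, and its exact Clopper-Pearson 95% intervals, which cover counting error only, overlapped between the libraries. The ranges of Ctsk and Ctsf overlapped as well. No fragment was counted for Ctsc, which activates serine proteases of immune cells, for Ctsh, an aminopeptidase, or for Ctss, a protease of antigen-presenting cells. A floor of 3 fragments per library, taken as what a count of 0 allows, corresponds to 0.133 to 0.137 FPKM for Ctsc, 0.212 to 0.219 FPKM for Ctsh and 0.154 to 0.159 FPKM for Ctss. The upper ends of the exact intervals were 0.163 to 0.168 FPKM for Ctsc, 0.260 to 0.269 FPKM for Ctsh and 0.189 to 0.195 FPKM for Ctss.

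Markers of cells known for these low cathepsins were looked up beside them, since cathepsin S marks macrophages and cathepsin K osteoclasts. Of 10 macrophage markers 4 were at 1 FPKM or more, and their summed level was 24.7 to 26.5 FPKM, of which Cd14 had 17.8 FPKM. Adgre1 and Itgam of the same list were at 0. Of 8 osteoclast markers 3 were at 1 FPKM or more, with a sum of 20.2 to 22.7 FPKM, the highest being Nfatc1 at 10.3 FPKM, and Ocstamp was at 0. The fibroblast label was met by 10 of 12 markers, whose sum was 9362 to 9478 FPKM with Fn1, fibronectin, at 4377 ± 86.1 FPKM (SD, n = 3). Lum was at 0. The labels' extraction text mentions retinas, and 0 of 12 retina markers reached 1 FPKM, with a sum of 1.104 to 1.61 FPKM.

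Cst3 encodes cystatin C, a secreted inhibitor of cysteine cathepsins. It was at 497, 513 and 500 FPKM, above every cathepsin other than Ctsl with the deposited lengths. Before division by length Ctsb was above it, with 12454, 11744 and 12153 fragments against 4760, 4759 and 4752. Cst3 held 6.36% ± 0.0886 (SD, n = 3) of the FPKM of the listed genes. That share was 2.81% with fragments not divided by gene length and 9.80% with the longest isoforms. The Cst3 level was 0.286 ± 0.00277 times that of Ctsl (SD, n = 3), and the ratio of their undivided fragments was 0.118. Of 5 other cystatins, 1 was at 1 FPKM or more. That gene was Cstb, a cytosolic inhibitor, at 152 ± 4.48 FPKM (SD, n = 3), whereas Csta1, Cst7 and Stfa1 were at 0.

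All 7 glycosidases were expressed, with 5.14% ± 0.0256 (SD, n = 3) of the FPKM of the listed genes. Gaa, acid alpha-glucosidase, which degrades glycogen and is deficient in Pompe disease, was at 228, 230 and 229 FPKM and held 56.2% of the class. Hexa, the alpha subunit of beta-hexosaminidase that is deficient in Tay-Sachs disease, had 54.6, 51.5 and 50.7 FPKM. Naglu, which acts on heparan sulfate, had 44.9, 43.6 and 44.4 FPKM. These 3 genes were separate from each other and from the rest of the class.

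Gla, deficient in Fabry disease, was at 24.4, 24.6 and 26.7 FPKM. Below it, Man2b1, lysosomal alpha-mannosidase, was at 23.0, 23.5 and 24.2 FPKM and Glb1, lysosomal beta-galactosidase, at 23.2, 23.6 and 22.4 FPKM, and these ranges overlapped. Gusb, beta-glucuronidase, was the lowest at 9.78, 10.2 and 9.32 FPKM. It is often used as a reference gene, and all glycosidases but Gusb were above 20 FPKM.

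The other soluble proteins held 16.9% ± 0.214 (SD, n = 3). Psap, the precursor of the saposins that help enzymes reach glycolipids, was at 453, 451 and 453 FPKM, a spread of 0.191% that was the smallest of any listed gene. That is below the 0.768% that counting error alone gives, so it does not show that Psap was steadier than other genes. Grn, which encodes progranulin, had 347, 344 and 355 FPKM. Npc2, which hands cholesterol to Npc1, had 163, 157 and 162 FPKM.

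Tpp1, a tripeptidyl peptidase, had 157, 156 and 157 FPKM and Asah1, acid ceramidase, had 146, 144 and 151 FPKM. Ppt1, which removes palmitate from proteins, was lower at 44.8, 42.1 and 42.4 FPKM. Lipa, the acid lipase that frees cholesterol from its esters, was the lowest of this class at 30.7, 30.3 and 29.6 FPKM. Neighbours in this class did not overlap between libraries, so 5 of its 7 genes lay above 100 FPKM in each library and Ppt1 and Lipa below 50 FPKM.

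Membrane proteins held 11.8% ± 0.0870 (SD, n = 3). Cd63, a tetraspanin of late endosomes and exosomes, was at 437, 434 and 443 FPKM. Lamp1 had 283, 282 and 279 FPKM and Lamp2, its relative with a part in fusion of autophagosomes and in chaperone-mediated autophagy, had 102, 98.2 and 99.97 FPKM. The Lamp1 level was 2.81 ± 0.0518 times that of Lamp2 (SD, n = 3), and the ratio of their undivided fragments was 1.53.

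The transporters and receptors of the membrane were lower. Mcoln1 was at 45.7, 42.4 and 40.7 FPKM and Scarb2, the receptor that carries glucocerebrosidase to the lysosome, at 40.9, 42.8 and 41.5 FPKM, with ranges that overlapped. Npc1, which exports cholesterol, was the lowest of the class at 30.1, 31.8 and 30.6 FPKM. Its soluble partner Npc2 was higher per length in each library, with a mean of 161 FPKM against 30.8 FPKM.

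The autophagy core held 26.3% ± 0.25 (SD, n = 3) of the FPKM of the listed genes, of which Sqstm1 alone gave 67.4%. Sqstm1 (ENSMUSG00000015837, chr11:50199366-50210827 on GRCm38, minus strand) was at 1404, 1394 and 1411 FPKM. Ulk1, the kinase that starts autophagy, was at 53.9, 52.7 and 48.3 FPKM, and Becn1, a subunit of the lipid kinase complex that acts next, at 34.1, 36.4 and 35.8 FPKM. The cargo receptor was above both genes that start the process in each library.

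The 5 measured genes of the ATG8 family summed to 471, 459 and 463 FPKM. Gabarap was at 184, 183 and 185 FPKM and Gabarapl1 at 129, 125 and 125 FPKM. Gabarapl2 followed with 47.7, 43.6 and 48.6 FPKM, so the GABARAP branch summed to 361, 352 and 359 FPKM. Of the LC3 branch, Map1lc3b was at 68.7, 71.5 and 69.8 FPKM and Map1lc3a at 41.9, 35.4 and 34.9 FPKM, highest in library 1, and both summed to 111, 107 and 105 FPKM. The 3 GABARAP genes thus lay above the 2 LC3 genes as a group in each library, although Gabarapl2 was below Map1lc3b. The Gabarap level was 3.95 ± 0.215 times that of Gabarapl2 and the Map1lc3b level 1.89 ± 0.214 times that of Map1lc3a (both SD, n = 3). The latter ratio rested on the lengths, since it was 1.19 with the longest isoforms and 4.47 with undivided fragments.

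The 5 listed genes of the conjugation machinery, which fixes ATG8 proteins to lipid, had means from 18.6 to 35.5 FPKM and summed to 130, 126 and 128 FPKM. Atg12, a ubiquitin-like protein, was at 35.2, 35.8 and 35.5 FPKM and Atg7, the activating enzyme, at 32.2, 35.3 and 33.8 FPKM. Atg3 had 22.7, 18.2 and 20.2 FPKM and overlapped Atg5, the partner of Atg12, with 20.8, 19.2 and 19.9 FPKM. Atg16l1, which places that complex on the membrane, was the lowest of the autophagy core at 19.0, 17.8 and 19.0 FPKM. In the order of means, the ranges of Map1lc3a and Atg12, of Atg12 and Becn1, and of Becn1 and Atg7 overlapped, as did those of Ulk1 and Gabarapl2.

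Across all classes, 38 pairs of neighbours in the order of means could be compared, and the libraries overlapped in 9 of them and were apart in 29. Each of the 6 ratios given above kept its side of 1 in every library. By exact permutation of signs over the libraries, two-sided, p = 0.25 was found for each, and 0.25 after Benjamini-Hochberg adjustment over the 6, which is the smallest value that 3 libraries allow.

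**Figure D2:**
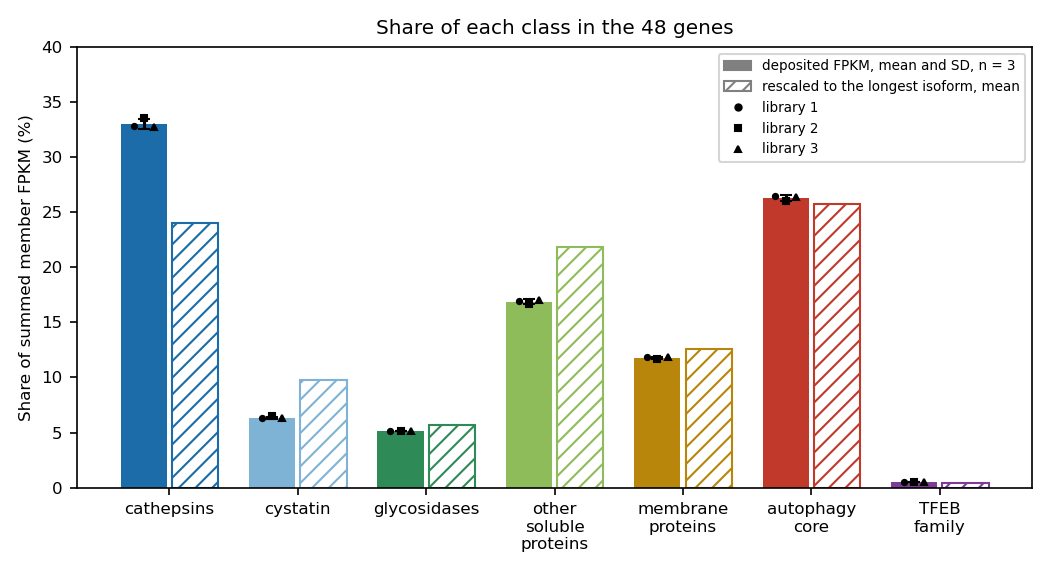
Share of each class in the summed FPKM of the 48 genes, in percent, with bars at the mean over the 3 NIH3T3 libraries and points for the libraries. Cathepsins (33.0%) and the autophagy core (26.3%) lead with the deposited lengths, an order that turns with the longest isoforms (24.0% against 25.8%), and the TFEB family is at 0.486%.

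The genes around the listed ones were measured as well. Of 18 subunits of the V-ATPase, the pump that acidifies lysosomes, 16 were at 1 FPKM or more. The highest was Atp6v1g1 at 179 ± 6.94 FPKM (SD, n = 3), and Atp6v0d2, an isoform known from osteoclasts, was the lowest at 0.0476 FPKM. Among 25 other lysosomal hydrolases, 19 reached 1 FPKM, and Ctsg and Ctsj were at 0.

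Of 6 genes of mannose 6-phosphate sorting, 5 reached 1 FPKM. Igf2r, the large mannose 6-phosphate receptor, was the highest at 83.6 ± 0.740 FPKM (SD, n = 3), and Sort1, an alternative sorting receptor, was at 0.00752 FPKM. All 26 other autophagy genes were at 1 FPKM or more, from Atg4c, a protease that trims ATG8 proteins, at 7.23 FPKM to Tax1bp1, a cargo receptor like p62, at 110 ± 0.625 FPKM (SD, n = 3). Of 15 genes of mTORC1 and the Ragulator, the complex on the lysosome that senses nutrients, 13 reached 1 FPKM, with Rragc the highest at 77.7 ± 2.03 FPKM (SD, n = 3) and Rragb at 0. Thus 16 of 18, 19 of 25, 5 of 6, 26 of 26 and 13 of 15 genes of these lists were expressed.

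The listed genes were called different between libraries about as often as other genes. The fragments of each gene with at least 10 expected fragments in each library were set against the library totals by a chi-square statistic, and a gene was called when it passed the 95% limit of counting error. This compares libraries, not conditions. Of the 43 listed genes tested, 4 (9.30%) were called, against 9.53% of all 13569 genes tested, so the share was near the background. The median of the statistic was 1.85 for them and 1.59 for all genes tested, where counting alone gives 1.39. Their median spread (CV) was 2.26%, where the median that counting alone gives is 2.67%. In 23 of the 43 the CV was below that of counting.

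The 4 called genes were Ctsl, Atg3, Map1lc3a and Ulk1. Ctsl had a CV of 2.71% where counting gives 0.498%, the smallest counting error of any listed gene. Atg3 varied the most, with a CV of 11.01% against 4.08%, from 678, 527 and 597 fragments. Map1lc3a had 10.4% against 4.53%, from 553, 452 and 457 fragments, and Ulk1 5.65% against 3.24%, from 1008, 954 and 897 fragments. Library 1 was the highest for Atg3, Map1lc3a and Ulk1 and library 2 for Ctsl, so they did not share an order. Without library 1 the calls fell to 2 (Ctsl and Gabarapl2) and the background to 6.94% of genes, and without library 2 Ctsl was no longer called and the calls were Atg3, Hexa, Map1lc3a, Mcoln1 and Ulk1. Without library 3 they were Atg3, Ctsb, Ctsl and Map1lc3a, so the call of Ulk1 was lost there, as it was without library 1, under median-of-ratios scaling and at the 99% limit.

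Among the listed genes, library 1 was most often the highest and library 2 most often the lowest, and this was not tested. Library 1 was the highest for 18 of the 43 (41.9%, against 34.8% of all genes tested), library 2 for 14 (32.6% against 34.6%) and library 3 for 11 (25.6% against 30.6%). Library 1 was the lowest for 11 (25.6% against 34.5%), library 2 for 18 (41.9% against 30.8%) and library 3 for 14 (32.6% against 34.7%).

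**Figure D3:**
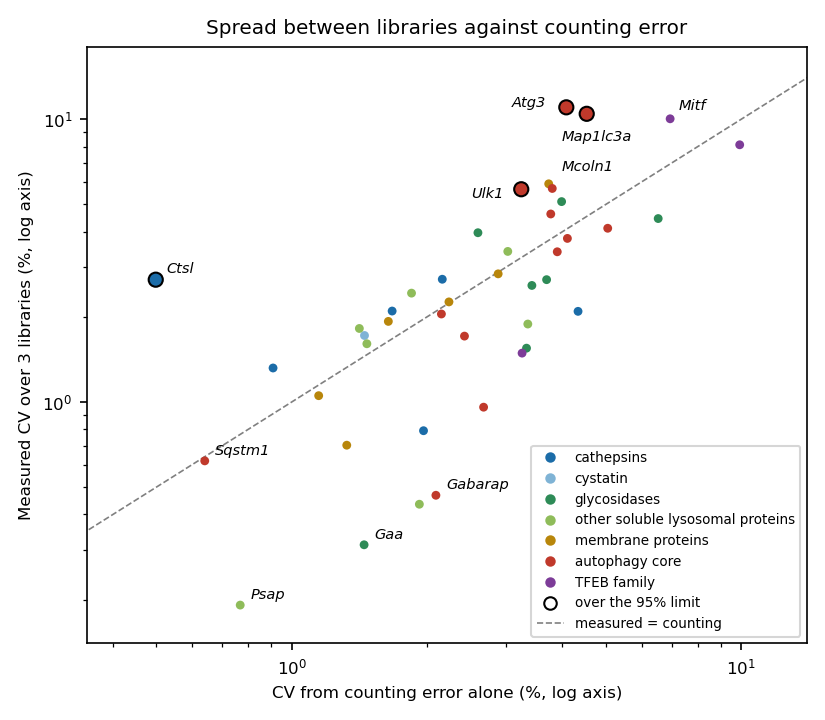
Measured coefficient of variation over the 3 libraries against the coefficient that counting error alone gives, both in percent on log axes, for the 43 listed genes with at least 10 expected fragments in each library. Points on the dashed line vary as counting predicts, and the outlined genes Ctsl, Atg3, Map1lc3a and Ulk1 pass the 95% limit.

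The level of a gene also rests on the length it was divided by. The deposited FPKM could be rebuilt with the mean length of all isoforms of a gene in GENCODE M21. Dividing by the longest isoform instead lowered the listed genes by a median factor of 1.84, against 1.72 for all genes at 1 FPKM or more, and 20 of them by more than 2. Ctsz, Hexa and Ctsk have 1 isoform and did not move. For some listed genes, among them Cd63, Map1lc3b and Tpp1, the longest isoform is annotated as one that retains an intron. Cd63 was at 184 FPKM with that isoform and at 481 FPKM with the next longest. Which isoforms were present was not tested.

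Ctsl has 7 isoforms, and the length used was 1609 nt, whereas its longest isoform has 6168 nt and the next 1971 nt. With the longest it was at 459 FPKM and with the next longest at 1437 FPKM. Sqstm1, at 641 FPKM with its longest isoform, exceeded Ctsl, but at 842 FPKM with its next longest it was below Ctsl. With the longest isoforms the Cst3 level became 0.846 times that of Ctsl, and the Ctsl level 2.56 times that of Ctsb. Both ratios thus kept their direction. Ulk1 moved the most, by a factor of 4.02, and Ctsa fell from 162 to 41.3 FPKM. Some orders within classes turned and others did not. With the longest isoforms Ctsa lay below Ctsd (85.7 FPKM), and Tpp1 (51.6 FPKM) below Asah1 (74.3 FPKM).

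**Figure D4:**
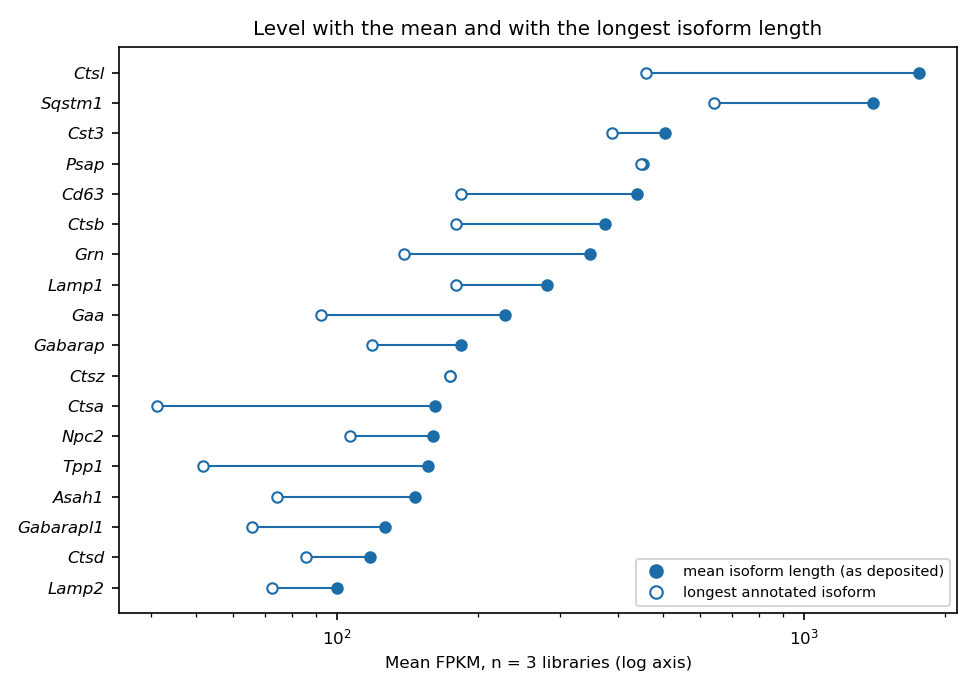
FPKM of the 18 listed genes at a mean of at least 100 FPKM, with the mean isoform length, as deposited (filled), and with the longest annotated isoform (open), on a log axis, as means over the 3 libraries. Ctsl lies above Sqstm1 with the mean length (1761 against 1403 FPKM) and below it with the longest isoform (459 against 641 FPKM).

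Some listed genes share sequence with others, so their reads could be split or lost in counting, and whether the counting used strand is not stated. Sequence was compared as 75-nt words of the annotated transcripts on either strand. No word was shared by 29 of the 48 genes, and 6 shared more than 10% of theirs. They were Becn1 with Cntd1 (33.6%), Ctsd with Gm49369 (31.3%), Ctsl mainly with Gm47123 (24.6% in all), Gabarapl1 with 1700101I11Rik (20.5%), Sqstm1 with Mrnip (14.6%) and Ctsb with Fdft1 (11.8%). Exons of 15 listed genes overlapped those of another gene, over more than 10% of their length in 8. Levels of these genes are less certain than those of the rest.

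Processed pseudogenes of listed genes carried fragments too. Gm6055, of which 75.3% of the words also occur in Map1lc3b, was at 46.6, 53.3 and 50.5 FPKM, or 71.6% of the Map1lc3b level per length. Its fragments were far fewer, at 254, 281 and 273 against 2148, 2165 and 2165 for Map1lc3b. Cd63-ps, of which 33.5% of the words occur in Cd63, was at 56.3, 56.2 and 56.6 FPKM, or 12.9% of the Cd63 level. Gm3724, a pseudogene of Gabarapl2, was at 1.14 FPKM, from 9, 4 and 4 fragments.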

How the data were processed

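Total RNA of 3 NIH3T3 libraries was sequenced as 150-nt read pairs. Per the labels and the study's methods, the authors used UMI-tools 1.0.0, HISAT2 2.0.4 and HTSeq 0.6.1, removed reads that shared a location and a UMI, counted per gene and deposited FPKM. The genome build and annotation are not given in the sources used here. Both deposited tables held the same values, and 0 columns were left unused.

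Library totals were recovered from genes with 1 isoform and 1 fragment in GENCODE M21 (GRCm38). Whole fragments, within 0.001, came out for 99.1% of the 26193 genes with a fragment. No count model was fitted to compare groups, as all libraries belong to the same condition. The recovered fragments were used in the chi-square statistic and the exact intervals. Ratios were taken within libraries. The spread statistic was tested on simulated data. Intervals and floors (3 fragments) cover counting error only. All 48 genes could be named, and of the other lists the highest and lowest gene and those at 0, beside genes that share sequence. A gene that this rule would name is not reported here. Cd14 and Nfatc1 are the highest of their lists. The genes, lists and pairs were chosen with earlier results of these data known, and the ATG8 branches and conjugation genes were put together with their values already seen. Other settings tried were the data without each replicate in turn, different FPKM limits, rescaling to 1000000 per library, fragments not divided by length, the longest isoform, leaving out mitochondrial genes, other pseudocounts, medians, median-of-ratios scaling, a minimum of 50 fragments and a 99% limit. Python 3.11.15, numpy 2.4.6, pandas 2.3.3, scipy 1.17.1 and matplotlib 3.10.9 were used.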

Additional observations from a re-analysis of the deposited data

How the results depend on the processing

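Of 101 alternative values, 18 shares, levels or counts moved beyond the spread between libraries or by over 1.5 times. The 101 include the ratios, and none of these was counted as moved although some changed by over 1.5 times. With the longest isoform the order of Ctsl and Sqstm1 turned, as did that of cathepsins and the autophagy core. Some orders within classes turned too, among them those of Ctsa and Ctsd and of Tpp1 and Asah1. The 6 ratios kept their direction, but their size rested on the length used: undivided fragments gave 9.33 for Tfe3 over Tfeb and 0.118 for Cst3 over Ctsl, and the longest isoform gave 0.846 for the latter. The 43 genes at 1 FPKM stayed within 1.5 times at every limit tried. The share of all FPKM was 1.19% with fragments not divided by gene length and 1.18% without mitochondrial genes. With undivided fragments the class shares were 36.2% for cathepsins, 2.81% for the cystatin, 5.68% for glycosidases, 20.2% for other soluble proteins, 12.4% for membrane proteins, 21.9% for the autophagy core and 0.742% for the TFEB family. With the longest isoform, chosen after seeing the data, they were 24.0%, 9.80%, 5.65%, 21.8%, 12.6%, 25.8% and 0.417% in that order, so the autophagy core then led. The median log2(FPKM + 1) was 5.46 for all listed genes and 5.57 for those at 1 FPKM or more. Leaving out each replicate in turn gave 2 to 5 genes called between libraries, against 4 with all. Median-of-ratios scaling gave 3 (no Ulk1), the 99% limit 3 and a minimum of 50 fragments 4. No paired analysis was possible because all libraries belong to the same condition. The annotation used in counting, the isoforms present and the origin of the libraries limit these levels, and the causes of the moves beyond length were not tested.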
